A study of Gallus gallus with 16 samples.

Results

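GPD1, LPIN1, DGKQ, PNPLA2 and PLIN2 are 5 genes that act on the making, the branching, the coating and the breakdown of triglyceride in abdominal fat of HG (high growth) and LG (low growth) chickens. They were taken as the rows of the deposited count table whose Ensembl identifier carries one of these symbols in the study's list of differentially expressed genes, and all 5 were found among the 17854 loci of the table. Because that list was drawn from these same birds, the direction of each gene was favored in advance and is not independent evidence. The birds were male Bresse-Pile meat-type chickens of 2 lines selected in opposite directions on body weight as juveniles and as adults. Both lines were sampled in the fed state at 7 wk, were given the same feeds, and had been vaccinated against Marek's disease at hatching, although the lines were housed apart and the LG chicks ate crushed pellets in the first weeks. RNA of 4 HG and 4 LG cockerels was sequenced in 2 lanes each, and the table holds 1 estimated count per gene and line. The line field of the labels reads HG for every sample, so the line was taken from the sample titles, and each count column is named for its line.

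An adipocyte builds triglyceride on glycerol-3-phosphate, which GPD1 forms from a glycolytic intermediate. Acyltransferases add fatty acids to give phosphatidic acid, lipins remove its phosphate to give diacylglycerol, and DGAT enzymes add the last fatty acid. Diacylglycerol kinases such as DGKQ run the lipin step backwards and return diacylglycerol to phosphatidic acid, a precursor of phospholipids and a signal. The stored triglyceride lies in lipid droplets coated by perilipins, of which PLIN2 is a broadly expressed member. Its breakdown begins with PNPLA2 (adipose triglyceride lipase), which removes the first fatty acid, and goes on through diacylglycerol and monoacylglycerol lipases. In birds most fatty acid is made in the liver and carried to fat, which stores it.

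The transcripts are tied to chicken genes through the accessions that the study gives beside its gene names or primers. For LPIN1, DGKQ, PNPLA2 and PLIN2, 4 of the 5, the accession belongs to the gene of the same symbol in the RefSeq table of the GRCg7b assembly. That of PNPLA2 and of PLIN2 was given with the counted locus. For LPIN1 and DGKQ it was the one given with the primers. It shows which gene those primers meant and does not check the counted locus. For GPD1 the accession does not belong to the gene of that symbol. The accession given with the study's GPD1 primers belongs in that table to GPD1L2 on chromosome 7, whereas GPD1 itself is listed on chromosome 34. The counted locus (ENSGALG00000012061) carries no RefSeq accession of its own, so whether its count is that of GPD1 or of the paralog GPD1L2 cannot be told here, and it is called GPD1 as in the study. The primers that the study designed for 3 of the 5 are shown because they state which transcripts it meant by these symbols. All are written 5′ to 3′. Their qRT-PCR readings were not analysed here.
GPD1 forward: tccccgctgggcagta
GPD1 reverse: tcttcatatgggctccattgc
LPIN1 forward: ggagctcaggcgctgaca
LPIN1 reverse: gatggcaatcgaaggcaaat
DGKQ forward: cagtgatgaccgctttgaga
DGKQ reverse: cttgacccatgtgaacaacg

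The column total was 4421254 for HG against 3365950 for LG, and 10484 loci were tested. These are the loci with the status OK, a count above 0 in both lines and one of at least 10 in either. The log HG/LG ratio was taken over a standard error that came from the deposited model variances, and the two-sided normal p was adjusted over all of them (Benjamini-Hochberg). A gene passed with an adjusted value up to 0.05 and a minimum fold of 1.2. With 1 value per line there is no check between birds, and the variance of the authors' model stands in for it. Over all loci tested 2.93% passed, of which 2.07% were higher in HG and the other 0.858% in LG. The middle of all log2 HG/LG ratios (their median) was 0.26, so each gene is read both as deposited and relative to that median. After centring on it 2.18% passed, of which 0.992% were higher in HG and the other 1.19% in LG. For GPD1, LPIN1 and DGKQ, the RNA-Seq folds that the paper prints are smaller than those of the deposited counts. They lie nearer to the folds relative to the median. A pass that holds only as deposited thus depends on the scaling, and which scaling is right was not tested.

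Of the 5 genes, 2 passed with the deposited counts, GPD1 and DGKQ, both higher in HG. After centring 2 passed as well, DGKQ in favor of HG and PNPLA2 in favor of LG. LPIN1 and PLIN2 passed neither way, although the study listed both as differing with its own test at the same adjusted value and fold. That test called many more genes than the 307 loci that passed here as deposited. The test here was thus the stricter, and a gene that did not pass it may still differ. If the deposited variance was divided by 4, as for a mean over the birds, LPIN1 and PNPLA2 passed as deposited too, along with 2841 loci in all. These shares are given beside the background only as a description, since the 5 were chosen from genes already called in these birds. In bulk fat, fewer cells of a type and less RNA per cell cannot be told apart.

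**Figure D1:**
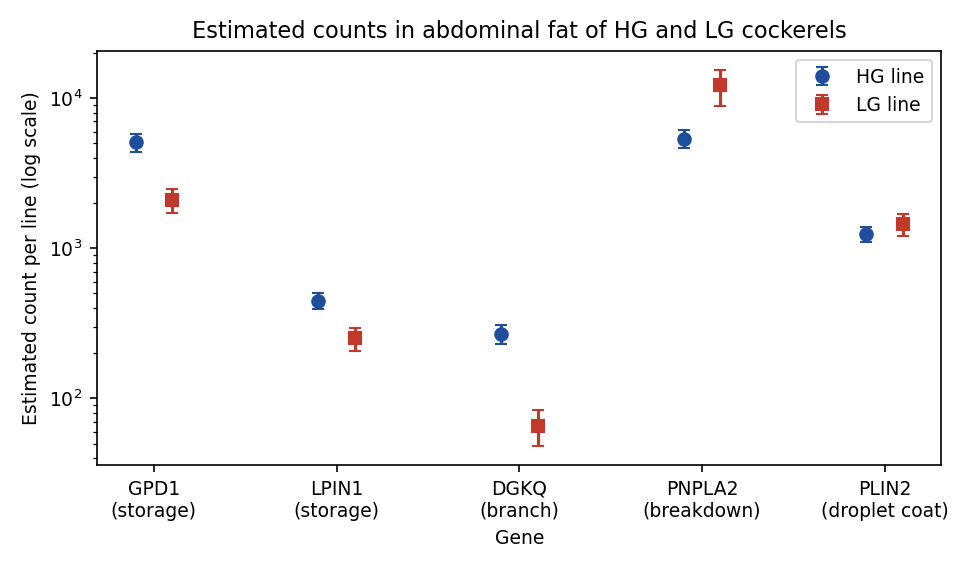
Estimated counts (vertical axis, log scale) of the 5 genes in the HG line (circles) and the LG line (squares), with bars of 1 standard deviation from the deposited variance. GPD1, LPIN1 and DGKQ lie higher in HG, PNPLA2 lies higher in LG, and the bars of PLIN2 overlap.

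On the storage side, GPD1 had an estimated count of 5108 in HG, with a deposited standard deviation of 695, against 2103 in LG with one of 394. The HG count was 2.43-fold the LG count, and the bars of 1 standard deviation do not overlap. On the log2 scale the HG/LG ratio came to 1.28 (95% interval 0.63 to 1.93), and 354 of the loci tested (3.38%) had a ratio as high or higher. Of the 739 with a count of 1000 or more in the higher line, 46 did. Relative to the median locus the GPD1 ratio was 1.02 (95% interval 0.37 to 1.67), and there it no longer passed. The ratio over its standard error was 3.83 as deposited, where 3.18 was the smallest that passed, and 3.05 after centring, where 3.27 was needed. Of every 1000000 counts in a line, GPD1 took 1155 in HG and 625 in LG.

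LPIN1, the lipin that turns phosphatidic acid into diacylglycerol and also acts in the nucleus as a coactivator in mouse, had an estimated count of 447 in HG (standard deviation 55.6) against 251 in LG (standard deviation 44.3). The HG count was higher by 1.78-fold. As deposited, its log2 ratio was 0.83 (95% interval 0.22 to 1.44), and it was 0.57 relative to the median locus, with an interval of -0.04 to 1.18 that takes in 0. A fold of at least 1.99 would have been needed for LPIN1 to pass, so a difference of the size measured was under the reach of the test. Of the loci tested, 997 (9.51%) had a ratio as high.

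DGKQ, the theta isoform of diacylglycerol kinase, had the largest ratio of the 5. Its count was 268 in HG (standard deviation 38.5) and 65.5 in LG (standard deviation 17.8), a 4.08-fold difference. The log2 ratio was 2.01 (95% interval 1.16 to 2.87), and 1.75 (95% interval 0.90 to 2.61) relative to the median locus. DGKQ passed under both scalings, and 95 loci (0.906%) had a ratio as high. The LG count is the lowest of the 10 values and its relative standard deviation was 27.1%, against 14.4% in HG.

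PNPLA2 ran the other way. Its count was 5366 in HG (standard deviation 740.1) and 12188 in LG (standard deviation 3327), so the LG count was higher by 2.27-fold. As deposited, the log2 HG/LG ratio was -1.18 (95% interval -2.05 to -0.32). Relative to the median locus it was -1.44 (95% interval -2.31 to -0.58). It passed after centring and not as deposited, and narrowly, since the ratio over its standard error was -3.27 and the smallest size that passed was also 3.27. With the deposited counts that quotient was -2.68. Of the 10484 loci tested, 348 (3.32%) had a ratio as low or lower, and of the 739 with a count of 1000 or more in the higher line, 21 did. Of every 1000000 counts PNPLA2 took 1214 in HG and 3621 in LG.

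With the deposited counts the PNPLA2 ratio is close in size to that of GPD1 in the other direction, but after centring it is the larger, with -1.44 against 1.02. It is also less precise. The deposited variance of PNPLA2 was 102 times its count in HG and 908 times its count in LG. As a relative standard deviation this is 13.8% in HG and 27.3% in LG, where the medians over the loci tested were 20.2% and 24.6%. The LG value made up 79.7% of the variance of the PNPLA2 ratio and 65.5% of that of GPD1. A fold of at least 2.65 was needed for PNPLA2 to pass as deposited and of 2.09 for GPD1. None of the deposited variance of any of the 5 came from uncertain assignment of fragments to isoforms. Leaving that part out kept the loci called over all loci tested at 307, so this may not be particular to the 5.

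PLIN2, the droplet coat protein, differed least. Its estimated count was 1246 in HG (standard deviation 143.9) and 1452 in LG (standard deviation 235.7). As deposited, the log2 ratio was -0.22 (95% interval -0.78 to 0.34), and it was -0.48 (95% interval -1.04 to 0.08) relative to the median locus. Both intervals take in 0. They leave out a log2 difference of more than 1.04 in favor of LG and of more than 0.34 in favor of HG, under the deposited variances. A fold of 1.89 was the smallest with which PLIN2 would have passed.

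**Figure D2:**
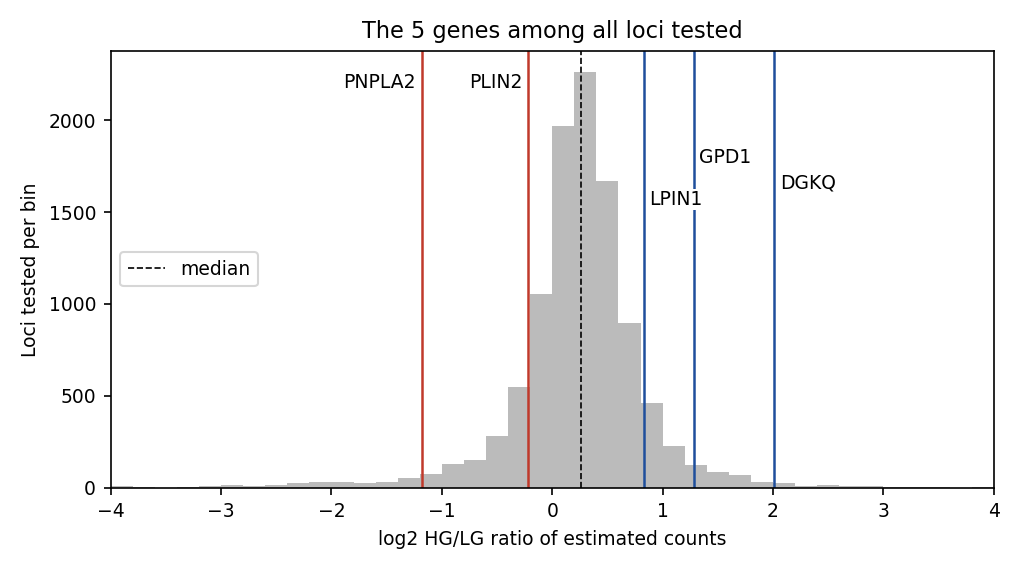
Number of loci tested (vertical axis) by log2 HG/LG ratio in bins of 0.2 (horizontal axis), with the 5 genes as vertical lines (blue above 0, red below) and the median of 0.26 dashed; 86 loci lie outside the plotted range. DGKQ, GPD1 and LPIN1 lie to the right of the bulk of the loci, PNPLA2 lies in the left tail and PLIN2 on the left shoulder.

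Storage and breakdown were then set against each other within each line. In such a quotient the scaling between the lines cancels, so it does not depend on the shift of the median. Counts are not divided by transcript length, and only the change of a quotient between the lines can be read, not its size. There were 0.952 GPD1 counts for each PNPLA2 count in HG and 0.173 in LG. The quotient of LPIN1 to PNPLA2 was 0.0833 in HG and 0.0206 in LG. That of DGKQ, a branch enzyme and not one of storage, to PNPLA2 was 0.0499 in HG and 0.00538 in LG. All 3 quotients were thus higher in HG. With the pseudocount of 1 added to each count, the change was 5.51-fold for GPD1, 4.04-fold for LPIN1 and 9.17-fold for DGKQ.

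The mean log2 HG/LG ratio of GPD1 and LPIN1 exceeded that of PNPLA2 by 2.24 (95% interval 1.26 to 3.21), or 4.72-fold. DGKQ lies on the branch away from triglyceride and is outside this balance. With it added to the storage side as an alternative, the difference was 2.56 (95% interval 1.60 to 3.52). With PLIN2 set beside PNPLA2 it was 1.76 (95% interval 1.07 to 2.44). The intervals take the estimates of the genes as independent, which the table does not show, and no test was made over the 5. Since the 5 were chosen from genes already called in these birds, a difference of this direction was favored in advance.

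Among the 10 pairs that the 5 genes form, the interval of the difference between the log2 ratios left out 0 in 7. PNPLA2 differed in this way from GPD1 (2.46, 95% interval 1.38 to 3.55), LPIN1 (2.01, 95% interval 0.96 to 3.07) and DGKQ (3.20, 95% interval 1.98 to 4.41). It did not differ so from PLIN2, with 0.96 (95% interval -0.07 to 1.99). PLIN2 in turn lay below LPIN1 by 1.05 (95% interval 0.22 to 1.88), below DGKQ by 2.23 (95% interval 1.21 to 3.26) and below GPD1, with a 95% interval of 0.64 to 2.36. DGKQ and LPIN1, which act on the same step in opposite directions, both had ratios above 0, of which that of DGKQ passed and that of LPIN1 did not. The DGKQ ratio exceeded that of LPIN1 by 1.18 (95% interval 0.13 to 2.23). GPD1 could not be separated from LPIN1 (0.45, 95% interval -0.44 to 1.34) or from DGKQ (0.73, 95% interval -0.34 to 1.81). These intervals are not adjusted for the number of pairs. The choice of the 5 from genes already called favored their directions in advance, so the 7 pairs are a description only.

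**Figure D3:**
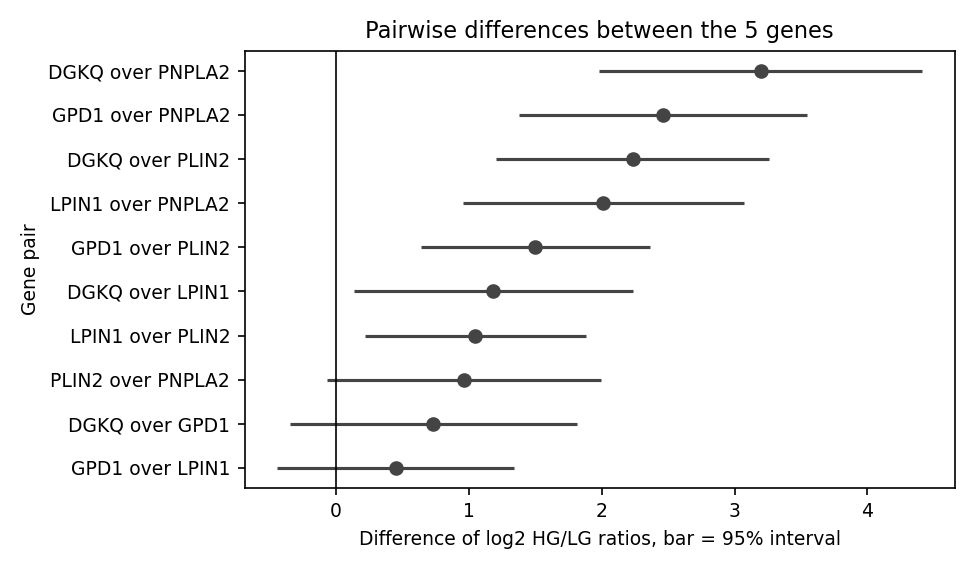
Difference between the log2 HG/LG ratios of each pair of the 5 genes (horizontal axis), the first named minus the second, with 95% intervals from the deposited variances. The 4 largest differences each have PNPLA2 or PLIN2 as the second gene, and the intervals of the 3 lowest pairs cross 0.

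Other genes of the same steps could be named only where the study's list gave a symbol, which leaves out many members. That list holds genes called as differing in these birds, so ratios away from the median were favored in advance for every gene named. Of 18 textbook genes of triglyceride synthesis, 4 had a row by name and 3 were tested. GPD1 was the 1 that passed with the deposited counts, and none of the 3 passed after centring. GPAT3 (listed as AGPAT9), a glycerol-3-phosphate acyltransferase of the step after GPD1, was counted at 812 in HG against 463 in LG. Its log2 ratio of 0.81 (95% interval 0.26 to 1.36) did not pass and lay beside that of LPIN1. The median log2 ratio of the 3, which include GPD1 and LPIN1, was 0.83, against 0.26 over all loci tested. Given how the 3 were named, this is a description only. DGAT2, the enzyme of the last step, was listed at 0 in both lines although the study's own list holds it as differing. An exact 0 may be a failed estimate, and 33 identifiers of that list were at 0 in both lines.

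Of 10 diacylglycerol kinases 2 had a row, and DGKQ alone of them passed. DGKH, the eta isoform, was counted at 55.5 in HG against 34.7 in LG, and its log2 ratio of 0.66 had an interval of -0.54 to 1.86. Of 9 genes of triglyceride breakdown 2 had a row. MGLL, the monoacylglycerol lipase that takes off the last fatty acid, was counted at 147.5 in HG against 192 in LG. Its log2 ratio was -0.37 (95% interval -1.11 to 0.36) and it passed neither way, while PNPLA2 passed after centring. Of 12 droplet proteins 2 had a row, and of these PLIN5, a perilipin of oxidative tissues in mammals, was listed at 0 in both lines. As with DGAT2, the study's list holds PLIN5 as differing, so this 0 may be a failed estimate.

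The list of lipolysis signalling, whose members do not all switch lipolysis on, was represented by 1 gene of 12. PRKAR2B, the type II-beta regulatory subunit of the cAMP-dependent protein kinase that is abundant in mammalian fat, was counted at 1291 in HG against 581 in LG. The log2 ratio of 1.15 (95% interval 0.60 to 1.70) passed with the deposited counts and, like GPD1, not after centring. Of 17 genes of fatty acid uptake and oxidation 2 were tested and neither passed. ACSL1, which activates fatty acids to acyl-CoA for either fate, was counted at 18328 in HG against 9011 in LG, with a log2 ratio of 1.02 (95% interval 0.13 to 1.92). HADHA, a subunit of the mitochondrial trifunctional protein of beta-oxidation, had a log2 ratio of -0.15 (95% interval -0.94 to 0.65).

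**Figure D4:**
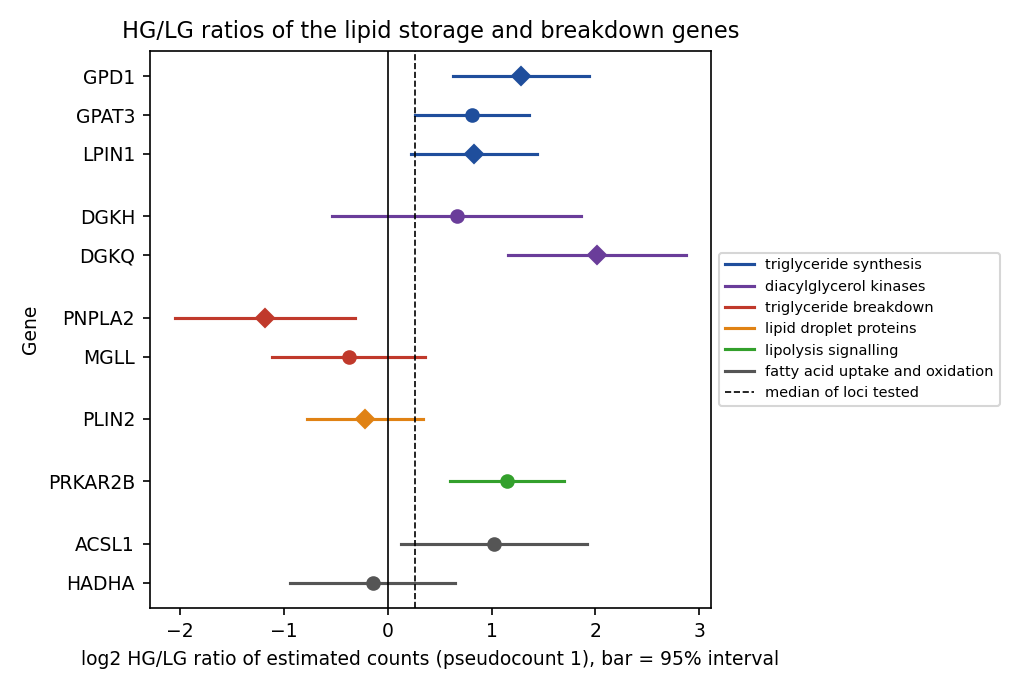
log2 HG/LG ratios (horizontal axis) with 95% intervals of the genes of the storage, breakdown, droplet, signalling and uptake lists that were tested, colored by list, with the 5 genes as diamonds, the others as circles, and the median of 0.26 dashed. The tested genes of triglyceride synthesis lie right of the median and those of breakdown lie left of it. All were named through the study's list of genes called in these birds, which favors such positions in advance.

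Most markers of fat and of other cells that had a row did not pass, and their counts are given beside the values above. Of 9 adipocyte markers only PPARG had a row by name, with 1774 counts in HG and 910 in LG, so the fat label could be checked with this gene alone. As deposited, PPARG passed in favor of HG, and after centring it did not. Of 12 hepatocyte markers SERPINC1 had a row, with 4.4 counts in HG and 64.7 in LG, and it did not pass. Its log2 ratio was -3.61, with an interval of -6.37 to -0.84 that leaves out 0. Other listed markers, among them ALB, FGA, FGB, GC and PLG, had no row by name. The paper reports these as much higher in LG. Whether liver RNA differed between the lines could thus not be judged from SERPINC1 alone. Of 10 skeletal muscle markers 5 had a row, and these summed to 1319 in HG and 527 in LG. ACTA1 made up most of both sums (1144 and 526), whereas ACTN2 (67.6 and 1.13), MYBPC1 (83.8 and 0) and TNNI2 (23.7 and 0.332) were near or at 0 in LG, and TNNC2 was at 0 in both lines. The 3 of these genes that could be tested passed neither way. Their log2 ratios were 1.12 for ACTA1 (interval 0.41 to 1.83), 5.01 for ACTN2 (2.57 to 7.44) and 4.21 for TNNI2 (0.99 to 7.43). All of these intervals leave out 0, but they hold the pseudocount of 1, which narrows them where a count is near 0. Without it, the TNNI2 ratio over its standard error was only 0.998. Among its genes most raised in HG, the paper lists MYL1, ACTN2, CASQ2, TNNC2 and TNNI2. The 0 of TNNC2 may thus be a failed estimate, as with DGAT2. Whether muscle RNA differed between the lines was not tested. The 3 of 8 macrophage markers with a row summed to 2535 and 1716, with 2318 in HG and 1401 in LG for CSF1R, 212 and 306 for SPI1, which passed neither way, and 5.05 and 9.26 for MMP9, which was not tested. CA2, the 1 of 6 red blood cell markers with a row, had 230 in HG against 454 in LG and passed in favor of LG after centring alone. WT1, the 1 of 6 mesothelial markers with a row, had 49.9 and 96.1 and did not pass. PLIN2 and PNPLA2 are expressed in liver, muscle and macrophages too. The part of other cells in the values of the 5 genes, those of storage included, was not tested.

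The genes whose HG/LG ratio was nearest to that of each of the 5 were sought among 798 genes with a symbol and a count of at least 100 in both lines. They were C20orf194 for GPD1 (log2 ratio 1.28), CAPN6 for LPIN1 (0.83), FAM57A for DGKQ (2.01), the prostaglandin transporter SLCO2A1 for PNPLA2 (-1.20) and CD3E, a chain of the T cell receptor complex, for PLIN2 (-0.22). With 1 value in each of 2 lines, many genes share a ratio, and likeness over so few values is a description only.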

How the data were processed

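The authors trimmed the reads with Btrim64, mapped them to Galgal4 with TopHat 1.3.3 and Bowtie 0.12.7, assembled them with Cufflinks and quantified them with Cuffdiff 2.0.2. The deposited table holds estimated counts (not whole, not divided by length, scaling between lines not stated) as 1 value per gene and line over 4 birds, with other columns for the model variance and its parts. Whether a variance is that of 1 library or of a mean is not stated, and no value of single birds was used. Printed ratios have a pseudocount of 1, which enters their 95% intervals. The test used counts without it. Symbols came from the study's list of differentially expressed genes (1993 identifiers used here, 1511 with a row), and accessions were matched to RefSeq names of GRCg7b, whose coordinates were not used. The genes and lists were chosen with earlier results of these data known. Genes named were the 5, list members that passed or otherwise up to 4 with the highest counts, muscle markers at 0, and the gene nearest in ratio to each. GPD2 was named after its values were seen. Alternatives were other scalings, count and fold minimums, variances, statuses and pseudocounts. The test was tried on simulated data. Python 3.11.15, pandas 2.3.3, numpy 2.4.6, scipy 1.17.1 and matplotlib 3.10.9 were used.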

Additional observations from a re-analysis of the deposited data

How the results depend on the processing

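Calls near the threshold depended on the scaling between the lines, from which the balance of storage against breakdown is free by construction. GPD1 no longer passed when its log2 ratio was centred on the median (1.02) or set to column totals (0.89). PNPLA2 passed under both, with log2 ratios of -1.44 and -1.58. Totals without hepatocyte and skeletal muscle markers (0.89 for GPD1, -1.58 for PNPLA2) were no separate check, since few of these markers had a row and the totals barely moved. The split of all loci called moved from 217 higher in HG and 90 in LG to 104 and 125 after centring and to 73 and 163 with column totals. When the deposited variance was divided by 4, as for a mean over the birds of a line, 2841 loci passed in place of 307, and LPIN1 (0.83) and PNPLA2 (-1.18) passed with them. DGKQ passed and PLIN2 did not pass under every alternative run. The balance ranged from 1.76 to 2.56. For the 21 named genes outside the 5 that were tested, the same alternatives were applied after seeing the data, and of 272 values 30 changed side of the threshold and 0 changed direction. No paired analysis was possible because the columns carry 1 pooled value per line, and leaving out single birds was not possible for the same reason. The LG values limit the precision most, with relative standard deviations of 27.1% for DGKQ at a count of 65.5 and of 27.3% for PNPLA2.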

Other observations

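GPD2, the mitochondrial glycerol-3-phosphate dehydrogenase that is the partner of GPD1 in the glycerophosphate shuttle, was picked after its values were seen. It was counted at 486 in HG against 235 in LG. The log2 ratio of 1.04 (95% interval 0.39 to 1.70) did not pass before or after centring. With a count minimum of 50, under which fewer loci were tested, it passed in favor of HG. It passed also with the variance divided by 4, and under no other alternative run.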
